A study of Mus musculus with 6 samples.

Results

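From the TRAPseq counts of skeletal muscle endothelium, 9 of the 24062 genes in the table were examined. They are 4 abundant non-coding RNAs (A630019I02Rik, A930016O22Rik, Gm15816 and D830015G02Rik), the 3 muscle genes that lie on the opposite strand to the first 3 of these (Cmya5, Ckm and Ank1), and 2 abundant protein-coding genes, Akap5 and Zcrb1. The genes were chosen by name for their abundance and their position opposite a muscle gene, so that their high counts are a description and not a finding. All 9 were in the table and all 9 passed the filter on low counts.

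In translating ribosome affinity purification (TRAP), a GFP-tagged ribosomal protein L10a is retrieved with an anti-GFP antibody, together with the RNAs on the tagged ribosomes. The mice carried the floxed GFP-L10a construct in the Rosa26 locus (background B6.129S4 in the labels, with CAG-EGFP/Rpl10a and birA), and VECad-Cre restricted its expression to endothelial cells. Ovariectomized female mice carried pellets with vehicle (placebo in the labels) or 17β-estradiol (E2) for 4 weeks, and gastrocnemius and soleus muscle was collected. Each group had 3 libraries, and each library was labelled with 2 mouse numbers. The construct, the Cre driver and the ovariectomy were common to both groups. The labels give an age of 4 weeks, and the written methods give an older age at surgery. The sources used here do not say if both mice of a label went into 1 pool, so that p-values measure the spread between libraries.

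Long non-coding RNAs on the strand opposite to a protein-coding gene are called antisense RNAs. They can share exon sequence with that gene, as the reverse complement, and many are made in the same tissue as their partner. Of the muscle genes, Ckm encodes the muscle creatine kinase, which passes phosphate between ATP and creatine. Cmya5 encodes myospryn, a large protein of the muscle fiber's costameres that binds protein kinase A and desmin. Ank1 encodes ankyrin 1, of which muscle makes a small membrane-bound form that sits in the sarcoplasmic reticulum.

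Libraries differed in their counts on genes and in their makeup. The counts on genes summed to between 84823 (vehicle replicate 3) and 451034 (vehicle replicate 2). The ribosomal RNA gene Rn45s held 28.5% to 42.9% of these counts. The paper gives a far higher number of sequenced reads per library, and where the other reads went was not tested. Levels are given as CPM, in which the counts of each library, Rn45s included, are scaled to the same total. A count of 0 would allow up to 3 counts, or 35.4 CPM in vehicle replicate 3, and each of the 9 genes had at least 10 counts in every library. Vehicle replicates 1 and 2 stood apart from the other 4 libraries: their Pearson's r across the 1682 genes tested was 0.949 with each other and at most 0.665 with any other library, whereas vehicle replicate 3 had an r of 0.676 to 0.768 with the E2 libraries. Transcripts of 4 Y-linked genes reached 40 and 63 counts in vehicle replicates 1 and 2, against 0 elsewhere. Xist, which is made from the inactive X chromosome of females, was at 3.46 and 2.22 CPM (1 count each) in those libraries and at 35.4 to 85.6 CPM in the other 4. These counts go against the description of all mice as female for the libraries labelled vehicle replicates 1 and 2. Every difference between E2 and vehicle that rests on these libraries therefore cannot be told apart from whatever else sets them apart, and this holds for the calls given for the 9 genes. The 9 genes and the 4 pair ratios are also given without vehicle replicate 3, and without vehicle replicates 1 and 2. In RNA labelled as endothelial, the defining endothelial genes had low counts. Over the 6 libraries, Cdh5 had 317 counts, Pecam1 62 and Cldn5 2, and 5 of the 22 genes of the list could be tested. The strand used in counting was not given for any gene, and its part in these low counts was not tested. Cd36, a fatty acid carrier that muscle fibers and fat cells also make, had 4203 counts and was most of the list's sum. The 28 muscle fiber genes of the marker list outside the 9 genes summed to between 79449 and 136713 CPM in a library. The 22 endothelial genes summed to between 1016 and 6574 CPM, or between 230 and 1377 CPM without Cd36. The lists differ in their genes and the series has no library of whole muscle RNA, so enrichment of endothelial RNA was not tested. In the paper's Q-RT-PCR, endothelial genes were enriched in TRAP RNA and myocyte genes in whole tissue.

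Positions are those of GENCODE M21, on the mm10 assembly. A630019I02Rik lies on the plus strand of chromosome 13, from 93094833 to 93098968, inside Cmya5 on the minus strand (93040713 to 93144724). A930016O22Rik lies on the minus strand of chromosome 7, from 19417466 to 19421417, inside Ckm on the plus strand (19404776 to 19422841). Gm15816 lies on the minus strand of chromosome 8, from 23138794 to 23149585, inside Ank1 on the plus strand (22974844 to 23150497). D830015G02Rik is listed in RefSeq as a synonym of Mhrt (Myheart), an RNA known from the heart. It lies on the plus strand of chromosome 14, from 54968678 to 54974349, and its exons share 484 bases with Myh7, the slow and cardiac myosin heavy chain gene on the minus strand. Myh7 is therefore given beside it, as a 4th pair that was added after the data were seen. Akap5 (chromosome 12, 76324891 to 76334153, plus strand) and Zcrb1 (chromosome 15, 93386097 to 93398334, minus strand) share 50 or more exon bases with no gene of the table on the opposite strand.

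The 4 non-coding RNAs overlap their partners in different ways. Of the 2990 exon bases of A630019I02Rik, 2451 lie over coding exons of Cmya5 and 539 over an intron. Of the 2560 exon bases of A930016O22Rik, 417 lie over coding exons of Ckm, 34 over its non-coding exons and 2109 over introns. Gm15816 has 1688 exon bases, with 405 over coding exons of Ank1, 457 over non-coding exons and 826 over introns. D830015G02Rik has 1214 exon bases, of which 463 lie over coding exons of Myh7, 21 over non-coding exons, 283 over introns and 447 outside Myh7. A630019I02Rik thus shares most of its exon sequence with its partner, and A930016O22Rik the least. The labels name a kit that keeps the strand of the RNA, and the sources used here do not state if the counting used the strand. For shared exons, reads of the 2 strands can be told apart only if it did, and which strand the reads of a pair came from was not tested.

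**Figure D1:**
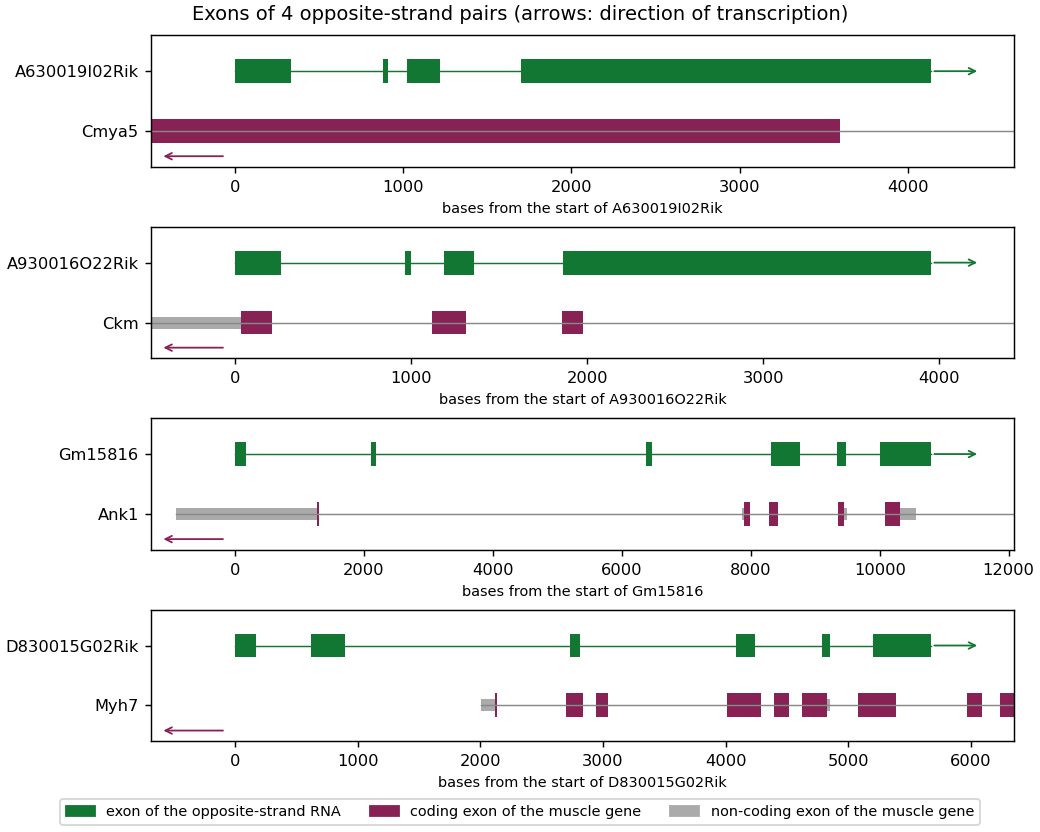
Exons of the 4 opposite-strand pairs, drawn to scale against the distance in bases from the start of the non-coding RNA, with the non-coding RNA above and the muscle gene below. Most of A630019I02Rik lies over 1 coding exon of Cmya5, whereas the longest exon of A930016O22Rik lies mainly over an intron of Ckm.

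The following stretches show what such a shared exon is, with 1 stretch of coding sequence for each muscle gene and, below it, the same place read on the other strand in the transcript of its opposite RNA. All are written 5′ to 3′ from the GENCODE transcripts (mm10). Capitals mark the 90 bases that are exon on both strands, and lower case marks 30 coding bases that lie beyond the exon of the opposite RNA.
Cmya5, chr13:93096503-93096622, minus strand: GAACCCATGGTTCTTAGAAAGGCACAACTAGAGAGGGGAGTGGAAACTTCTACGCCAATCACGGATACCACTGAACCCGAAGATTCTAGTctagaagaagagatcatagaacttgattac
A630019I02Rik, chr13:93096533-93096622, plus strand: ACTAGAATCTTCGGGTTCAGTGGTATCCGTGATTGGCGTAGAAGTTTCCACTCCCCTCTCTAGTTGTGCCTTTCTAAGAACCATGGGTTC
Ckm, chr7:19420143-19420262, plus strand: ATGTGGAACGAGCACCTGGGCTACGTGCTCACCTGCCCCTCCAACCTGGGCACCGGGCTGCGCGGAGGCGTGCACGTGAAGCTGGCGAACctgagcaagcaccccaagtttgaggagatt
A930016O22Rik, chr7:19420143-19420232, minus strand: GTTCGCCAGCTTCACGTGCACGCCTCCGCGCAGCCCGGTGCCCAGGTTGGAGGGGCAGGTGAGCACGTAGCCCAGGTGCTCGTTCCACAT
Ank1, chr8:23141176-23141295, plus strand: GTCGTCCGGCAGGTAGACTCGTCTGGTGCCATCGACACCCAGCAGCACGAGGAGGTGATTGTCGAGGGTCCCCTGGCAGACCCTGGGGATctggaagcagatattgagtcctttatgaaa
Gm15816, chr8:23141176-23141265, minus strand: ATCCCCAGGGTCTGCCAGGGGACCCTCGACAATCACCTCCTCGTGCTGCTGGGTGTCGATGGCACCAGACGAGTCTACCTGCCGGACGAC
Myh7, chr14:54973848-54973967, minus strand: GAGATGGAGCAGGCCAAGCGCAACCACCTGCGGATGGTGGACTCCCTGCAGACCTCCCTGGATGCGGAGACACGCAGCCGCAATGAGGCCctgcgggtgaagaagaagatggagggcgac
D830015G02Rik, chr14:54973878-54973967, plus strand: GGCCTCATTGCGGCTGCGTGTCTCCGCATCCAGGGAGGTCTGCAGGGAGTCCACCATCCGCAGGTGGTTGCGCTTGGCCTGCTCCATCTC

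Ranked by mean CPM over the 6 libraries, A630019I02Rik came 2nd and A930016O22Rik 3rd of all genes, after Rn45s. Akap5 ranked 5, D830015G02Rik 8, Gm15816 10, Cmya5 17 and Zcrb1 19. The other genes of the first 20 were the muscle genes Tnnc2, Myh4, Ttn, Actn3, Tpm2, Atp2a1 and Tnnt3, the non-coding RNAs Gm12505 and Gm15441, the ribosomal protein genes Rps3a1 and Rps23, and Lars2. The genes on either side of the lowest of these, Zcrb1 (3795 CPM), were Tnnt3 (4023 CPM) and Lars2 (3623 CPM). Ckm ranked 131 and Ank1 363, although both were chosen as partners of an abundant RNA. With Rn45s set aside, the 9 genes took up 16.3% to 24.4% of each library. The 4 non-coding RNAs held between 7.96% and 9.40% in vehicle replicates 1 and 2, 22.5% in vehicle replicate 3 and 13.7% to 16.7% in the E2 libraries.

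Per kilobase of exon, A630019I02Rik had the highest level (mean 14361 ± 2244 CPM per kb, SD, n = 6). A930016O22Rik had 12755 ± 8575 CPM per kb, D830015G02Rik 8512 ± 5523 and Gm15816 4355 ± 1394. Akap5 had 3370 ± 2693 CPM per kb and Zcrb1 1234 ± 1409. Cmya5 (359 ± 236 CPM per kb), Ckm (170 ± 51.1) and Ank1 (15.1 ± 6.91) were the lowest on this scale, which uses the exons of all forms of a gene. Each of these genes overlapped the next in the range of its libraries, except that the lowest library of Ckm (106 CPM per kb) lay above the highest of Ank1 (25.6 CPM per kb).

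**Figure D2:**
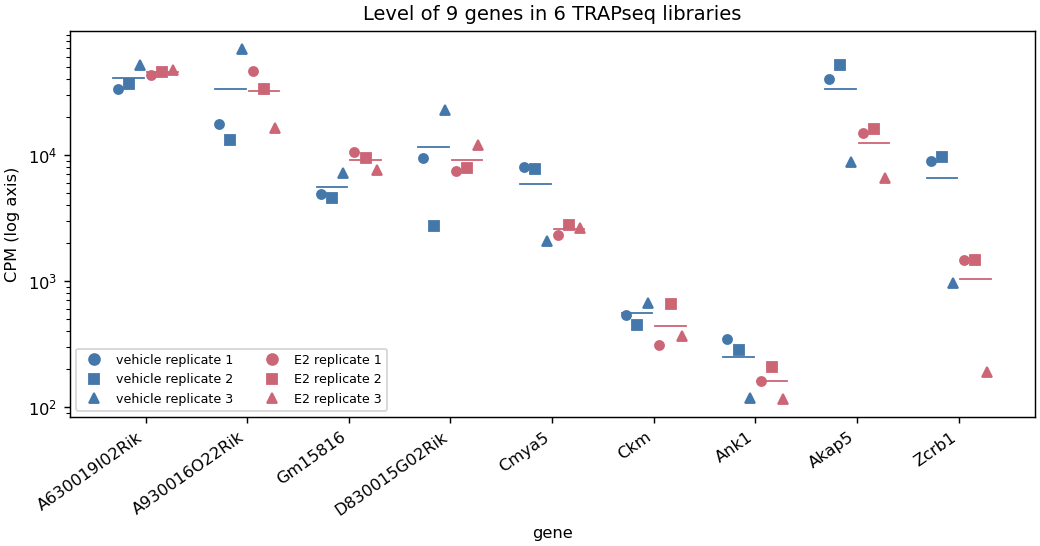
CPM of the 9 genes in the 6 libraries on a log axis, with blue for vehicle, red for E2 and horizontal lines at the group means. Vehicle replicate 3 sits with the E2 libraries for Cmya5, Ank1, Akap5 and Zcrb1, and Gm15816 is the gene whose groups do not overlap.

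A630019I02Rik was the steadiest of the non-coding RNAs. It had 9700, 16485 and 4354 counts in vehicle replicates 1, 2 and 3 (33583, 36549 and 51330 CPM) and 5437, 9094 and 9485 counts in E2 replicates 1, 2 and 3 (43174, 45805 and 47187 CPM). The E2 libraries lay between the lower pair of vehicle libraries and vehicle replicate 3, and the highest library was 1.53 times the lowest. Here and below, BH-adjusted p-values are from the Benjamini-Hochberg method. The log2 fold change, E2 against vehicle, was 0.30 ± 0.38 (SE; BH-adjusted p = 0.664 by the quasi-likelihood test of edgeR). It was 0.63 without vehicle replicate 3 (adjusted p = 0.117) and -0.06 without vehicle replicates 1 and 2 (adjusted p = 0.975).

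Cmya5, its partner, had 2316, 3454 and 177 counts with vehicle (8018, 7658 and 2087 CPM) and 290, 552 and 532 in the E2 libraries (2303, 2780 and 2647 CPM). The E2 libraries lay close together, vehicle replicates 1 and 2 were about 3 times as high, and vehicle replicate 3 was the lowest of all. The log2 fold change was -1.05 ± 0.50 (SE; BH-adjusted p = 0.191 by the quasi-likelihood test of edgeR). Without vehicle replicate 3 it was -1.35 (BH-adjusted p = 0.00155, edgeR), and without vehicle replicates 1 and 2 it was 0.41 (adjusted p = 0.810). A further RNA opposite Cmya5, Gm4814, shares 119 exon bases with it and had 227, 394 and 234 counts with vehicle and 210, 270 and 194 with E2.

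A930016O22Rik varied widely in level. There were 5074, 5925 and 5898 counts with vehicle (17567, 13136 and 69533 CPM) and 5786, 6617 and 3298 with E2 (45945, 33329 and 16407 CPM). The highest level, in vehicle replicate 3, was 5.29 times the lowest, in vehicle replicate 2, so that the spread within the vehicle group exceeded that between the groups. The log2 fold change was 0.01 ± 0.55 (SE; BH-adjusted p = 0.995 by the quasi-likelihood test of edgeR), 1.27 without vehicle replicate 3 (adjusted p = 0.0102) and -1.05 without vehicle replicates 1 and 2 (adjusted p = 0.393).

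Ckm was at a low level for a main transcript of muscle, with 155, 202 and 57 counts with vehicle (537, 448 and 672 CPM) and 39, 129 and 73 in the E2 libraries (310, 650 and 363 CPM). The groups overlapped, with vehicle replicate 3 the highest and E2 replicate 1 the lowest library. Its log2 fold change was -0.22 ± 0.45 (SE; BH-adjusted p = 0.794 by the quasi-likelihood test of edgeR), 0.07 without vehicle replicate 3 (adjusted p = 0.863) and -0.52 without vehicle replicates 1 and 2 (adjusted p = 0.763). Of the other genes that handle creatine, Ckmt2, the mitochondrial creatine kinase of muscle, was the only one with enough counts to test (log2 fold change -0.72, adjusted p = 0.339).

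Gm15816 had 1423, 2048 and 607 counts with vehicle (4927, 4541 and 7156 CPM) and 1317, 1864 and 1535 with E2 (10458, 9389 and 7636 CPM). The lowest E2 library exceeded the highest vehicle library, as it did for 8.68% of the 1682 genes tested. Vehicle averaged 5541 ± 1412 CPM and E2 9161 ± 1424 CPM (SD, n = 3 each), with p = 0.1 in a two-sided exact permutation test, below which 3 libraries against 3 cannot go. The log2 fold change of 0.84 ± 0.43 did not pass the test (SE; BH-adjusted p = 0.222 by the quasi-likelihood test of edgeR). It was 1.19 without vehicle replicate 3 (adjusted p = 0.00594) and 0.46 without vehicle replicates 1 and 2 (adjusted p = 0.792).

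Ank1 was the lowest of the 9 genes, with 100, 127 and 10 counts with vehicle (346, 282 and 118 CPM) and 20, 41 and 23 in the E2 libraries (159, 207 and 114 CPM). Vehicle replicates 1 and 2 were the highest libraries, and vehicle replicate 3 lay within the range of E2. Its log2 fold change was -0.57 ± 0.46 (SE; BH-adjusted p = 0.453 by the quasi-likelihood test of edgeR), -0.74 without vehicle replicate 3 (adjusted p = 0.0564) and 0.52 without vehicle replicates 1 and 2 (adjusted p = 0.812).

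D830015G02Rik had 2717, 1222 and 1911 counts with vehicle (9407, 2709 and 22529 CPM) and 945, 1556 and 2415 with E2 (7504, 7837 and 12014 CPM). The vehicle libraries spread over 8.32 times and enclosed the E2 libraries. The log2 fold change was -0.20 ± 0.58 (SE; BH-adjusted p = 0.848 by the quasi-likelihood test of edgeR), 0.83 without vehicle replicate 3 (adjusted p = 0.113) and -1.16 without vehicle replicates 1 and 2 (adjusted p = 0.301). Its partner Myh7 had 702, 319 and 69 counts with vehicle and 50, 90 and 168 with E2, with a log2 fold change of -1.07 ± 0.56 (SE; BH-adjusted p = 0.231, edgeR).

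The ratio of the opposite RNA to the muscle gene within a library does not depend on the scaling between libraries. A630019I02Rik had 4.19, 4.77 and 24.6 counts for each count of Cmya5 in vehicle replicates 1, 2 and 3, and 18.7, 16.5 and 17.8 in E2 replicates 1, 2 and 3. The E2 libraries were nearly equal, vehicle replicates 1 and 2 lay well below them and vehicle replicate 3 above them. The share of A630019I02Rik in the counts of the pair was 80.7% (95% Wilson interval 80.0% to 81.4%) in vehicle replicate 1 and 94.9% (94.3% to 95.5%) in E2 replicate 1, where the intervals cover counting error only.

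For A930016O22Rik and Ckm the ratios were 32.7, 29.3 and 103 with vehicle and 148, 51.3 and 45.2 with E2. Vehicle replicates 1 and 2 again had the lowest ratios, and the E2 libraries differed by a factor of more than 3 among themselves. For Gm15816 and Ank1 they were 14.2, 16.1 and 60.7 with vehicle and 65.9, 45.5 and 66.7 with E2, so that vehicle replicate 3 fell within the range of E2. For D830015G02Rik and Myh7 they were 3.87, 3.83 and 27.7 with vehicle and 18.9, 17.3 and 14.4 with E2. In each of the 4 pairs vehicle replicates 1 and 2 had the lowest ratios of the 6 libraries, and the opposite RNA exceeded the muscle gene in all 6.

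Per kilobase of exon, the excess of the opposite RNA was larger in each pair, since its exons are shorter than those of its partner. A630019I02Rik was between 16.6 and 97.5 times as high as Cmya5 per kb, and A930016O22Rik between 33.4 and 169 times as high as Ckm. The range was 114 to 535 for Gm15816 against Ank1, the widest gap of the 4 pairs in every library on this scale. It was 27.2 to 197 for D830015G02Rik against Myh7. The Ank1 length of 13527 bases covers the exons of all its forms, whereas muscle makes a small one, so its gap per kb depends on that length. By counts, the ratio of A930016O22Rik to Ckm exceeded that of Gm15816 to Ank1 in each library but E2 replicate 3. Since the strand setting was not given, the direction of these gaps was not tested.

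**Figure D3:**
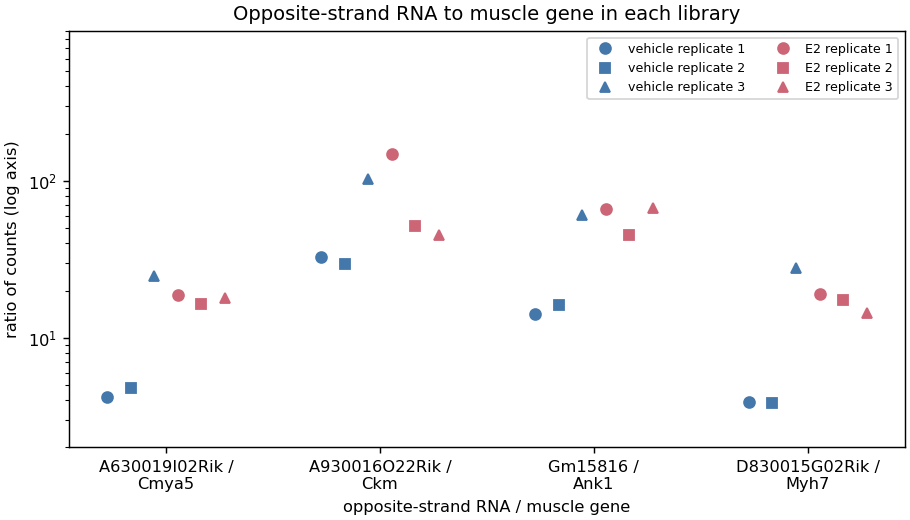
Counts of the opposite-strand RNA for each count of its muscle gene, by library, on a log axis, with blue for vehicle and red for E2. In each pair the ratios of vehicle replicates 1 and 2 are the lowest, and vehicle replicate 3 is at the level of the E2 libraries or above most of them.

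The mean log2 ratio was higher with E2 than with vehicle in each pair, and each difference was smaller than the range of the vehicle libraries in that pair. For A630019I02Rik and Cmya5 it was 2.98 ± 1.42 with vehicle and 4.14 ± 0.09 with E2 (SD, n = 3 each), a difference of 1.16 (exact permutation test, two-sided, p = 0.4). For A930016O22Rik and Ckm it was 5.53 ± 1.00 and 6.12 ± 0.94, a difference of 0.59 (p = 0.5 in the same exact test). For Gm15816 and Ank1 it was 4.56 ± 1.12 and 5.84 ± 0.31, a difference of 1.28 (p = 0.2 in the same exact test). The p-value adjusted over these 3 pairs was 0.5 for each. The added pair D830015G02Rik and Myh7 had a difference of 1.17 (p = 0.4 in the same exact test).

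These differences turned on which vehicle libraries were used. Without vehicle replicate 3, the log2 differences were 1.98, 1.17, 1.93 and 2.11 in the order above, and the E2 libraries lay above both vehicle libraries in each pair (p = 0.2 by exact permutation, below which 2 libraries against 3 cannot go). The same non-overlap held for 51.4% of the 142 opposite-strand pairs described below, whose median log2 difference was then 1.12. With vehicle replicate 3 as the only vehicle library, they were -0.48, -0.56, -0.01 and -0.72, values with no test. The muscle fiber genes outside the 9 summed to 136713 and 107673 CPM in vehicle replicates 1 and 2, to 88419 CPM in vehicle replicate 3 and to between 79449 and 107370 CPM in the E2 libraries. The summed endothelial list was 5034 and 6574 CPM in vehicle replicates 1 and 2, 1497 CPM in vehicle replicate 3 and 1016 to 2473 CPM in the E2 libraries. Without Cd36 it was 1222 and 1377 CPM, 389 CPM, and 230 to 881 CPM, and the part of either list in the ratios was not tested.

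The 4 pairs were set beside all pairs of a non-coding and a protein-coding gene in the table that share at least 50 exon bases on opposite strands and have 100 or more counts together. There were 142 such pairs, some of which share a gene. By counts of the non-coding gene, the 4 pairs ranked 1 (A630019I02Rik), 2 (A930016O22Rik), 3 (D830015G02Rik) and 4 (Gm15816). The non-coding gene had more counts than the coding gene in 107 of the 142 pairs (75.4%), and the median share of the non-coding gene was 82.5%. The share was 88.2% for A630019I02Rik, 98.0% for A930016O22Rik, 96.5% for Gm15816 and 88.5% for D830015G02Rik over the 6 libraries, which placed them 47, 11, 16 and 46 among the pairs. By these counts, an excess of the non-coding gene was the more common case among the pairs. If stranded libraries were counted with the opposite strand setting, the reads of shared exons would be given to the other gene of each pair and these ratios could turn, which was not tested. The high counts of the 4 RNAs follow from how they were chosen. The ratio of every E2 library lay above that of every vehicle library in 0 of the 4 pairs and in 14.8% of the 142, and lay below it in 0 of the 4 and in 1.41% of the 142. The median log2 difference of the ratio over the 142 pairs was 0.57, and 106 had a value above 0. Without vehicle replicate 3 the median was 1.12, and 120 had a value above 0.

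**Figure D4:**
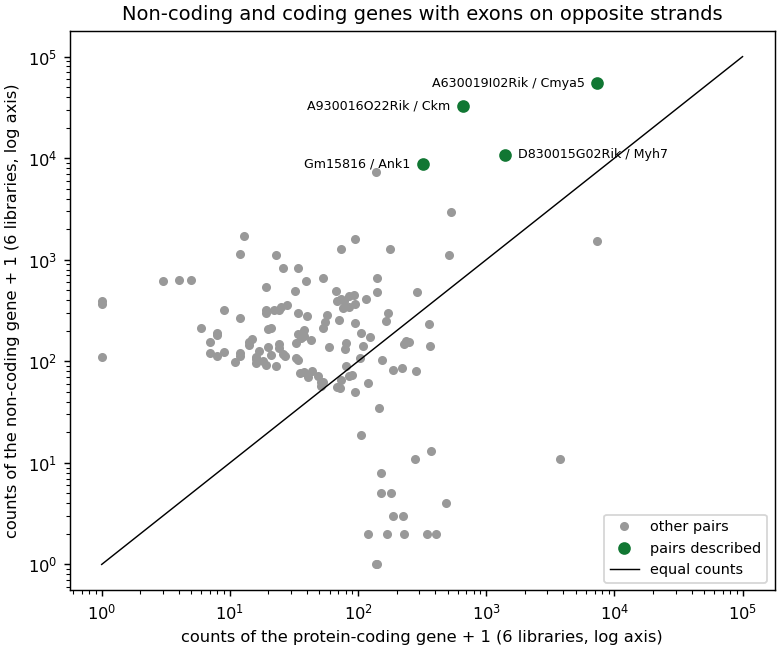
Counts of the non-coding gene against those of the protein-coding gene on the opposite strand, summed over the 6 libraries, for 142 pairs on log axes, with 1 added to each count. The 4 described pairs hold the 4 highest counts of a non-coding gene, and 107 of the 142 pairs lie above the line of equal counts.

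Of the 31 muscle fiber genes of the marker list, 8 had an opposite gene with shared exons in the table, and Cmya5, Ckm, Ank1 and Myh7 were those whose opposite genes had more counts than they had themselves. These 4 genes had between 321 and 7321 counts over the 6 libraries. The 23 muscle genes with no such opposite gene had between 81 and 29732 counts, with a median of 1583. Tnnc2, the fast skeletal troponin C gene, had 29926 counts against 6 for its opposite gene.

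Akap5 and Zcrb1 differed widely between libraries. Akap5 encodes an anchoring protein (AKAP150 in rodents) that holds protein kinase A and calcineurin at the plasma membrane. It had 11663, 23139 and 747 counts with vehicle (40379, 51302 and 8807 CPM) and 1889, 3171 and 1314 with E2 (15000, 15972 and 6537 CPM). Vehicle replicates 1 and 2 were the highest libraries, and vehicle replicate 3 lay within the range of E2. The log2 fold change was -1.31 ± 0.52 (SE; BH-adjusted p = 0.127 by the quasi-likelihood test of edgeR). It was -1.65 without vehicle replicate 3 (adjusted p = 0.000685) and 0.57 without vehicle replicates 1 and 2 (adjusted p = 0.740).

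Zcrb1 encodes an RNA-binding protein of the minor spliceosome, which removes a rare class of introns. It had 2597, 4376 and 82 counts with vehicle (8991, 9702 and 967 CPM) and 183, 291 and 38 with E2 (1453, 1466 and 189 CPM). Vehicle replicates 1 and 2 lay far above the rest, vehicle replicate 3 lay inside the range of E2, and the highest library was 51.3 times the lowest. Vehicle averaged 6553 ± 4851 CPM and E2 1036 ± 733 CPM (SD, n = 3 each). Zcrb1 was the 1 gene of the 9 that passed the test, with a log2 fold change of -2.59 ± 0.72 (SE; BH-adjusted p = 0.0440 by the quasi-likelihood test of edgeR). Lower levels with E2 were called for 2.97% of all genes tested and higher levels for 2.5%. Without vehicle replicate 1 the adjusted p was 0.108, without E2 replicates 1, 2 or 3 it was 0.106, 0.169 and 0.154. Without vehicle replicate 3 the log2 fold change was -2.99 (adjusted p = 3.17e-05), and without vehicle replicates 1 and 2 the log2 fold change was 0.13 (adjusted p = 0.954).

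Akap5 and Zcrb1 varied together over the 6 libraries (Pearson's r of log2(CPM + 1) 0.969), as did Akap5 and Ank1 (0.953), as a description over libraries that fall into 2 sets. The number of Akap5 counts for each Zcrb1 count was 4.49 and 5.29 in vehicle replicates 1 and 2, 9.11 in vehicle replicate 3 and 10.3, 10.9 and 34.6 in the E2 libraries. A630019I02Rik went against its partner Cmya5 (r = -0.939), whereas A930016O22Rik and Ckm varied little together (r = 0.28). Gm15816 and Ank1 had an r of -0.63.

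**Figure D5:**
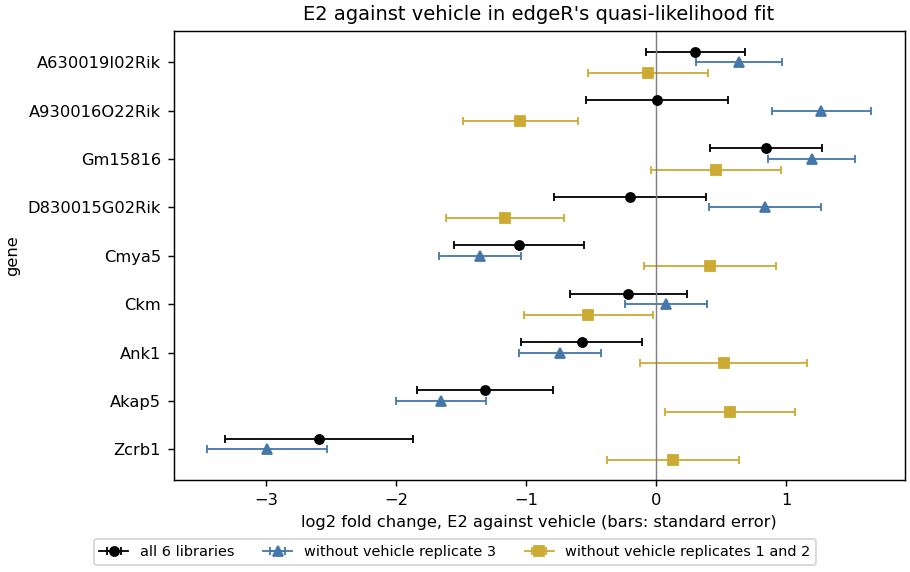
Log2 fold change of E2 against vehicle with its standard error for the 9 genes, with all 6 libraries (black), without vehicle replicate 3 (blue) and without vehicle replicates 1 and 2 (yellow). Zcrb1 is at -2.59, -2.99 and 0.13 in the 3 fits, and the values of A630019I02Rik, A930016O22Rik, Cmya5, Ank1 and Akap5 also differ in sign between the first and the third.

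Without vehicle replicate 3, 5 of the 9 genes passed the adjusted p. Cmya5, Akap5 and Zcrb1 were then lower with E2 and A930016O22Rik and Gm15816 higher, where 24.3% of all genes tested were called lower and 22.1% higher. Without vehicle replicates 1 and 2, none of the 9 genes passed (0 of 9, edgeR's quasi-likelihood test), with 1 vehicle library that was assumed to vary like the others. An unadjusted p under 0.05 was then found for A930016O22Rik and D830015G02Rik, 2 of the 9, both with lower values in E2. Of all 1907 genes tested in that fit, 0.367% passed the adjusted p and 2.88% had a lower value at an unadjusted p under 0.05. A930016O22Rik and D830015G02Rik both had their highest level in vehicle replicate 3, the only vehicle library of that fit. The 9 genes were chosen with earlier results known, so that these counts over them are a description.

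Genes with related roles were read from lists chosen for this work. Of all 1682 genes tested, 25.6% had an unadjusted p under 0.05 in the quasi-likelihood test of edgeR, and 15.3% were called by its likelihood ratio test, 5.71% by DESeq2 and 4.28% by limma-voom. Of the A-kinase anchoring and protein kinase A genes, 4 of 17 could be tested and 0 were called by edgeR, DESeq2 or limma-voom, where Akap5 and Akap9 had an unadjusted p under 0.05 in edgeR, with Akap2 at a log2 fold change of -0.24, Akap9 at -1.53 and Akap13 at -0.02. Akap12, with 144 counts, had the most counts of this list after Akap5, which had 41923. Of 9 minor spliceosome genes, Zcrb1 and Zrsr2 could be tested, and Zrsr2 had 97 counts and a log2 fold change of -0.23 (BH-adjusted p = 0.777, edgeR). Of 10 genes for the costamere and Z-disc, 7 were tested and 0 called by edgeR, DESeq2 or limma-voom, with a median log2 fold change of -0.58 and 2 unadjusted p under 0.05 in edgeR (Cmya5 and Des). Ttn, the largest sarcomere protein, had -0.58 and Des, the desmin gene, -1.17. Of 7 genes of the creatine kinase system, 2 were tested and 0 called by edgeR, DESeq2 or limma-voom (median -0.47), and 0 had an unadjusted p under 0.05. With vehicle replicate 3 left out, 4 of 7 tested A-kinase anchoring and protein kinase A genes, 2 of 7 costamere and Z-disc genes and 1 of 2 creatine kinase genes were called lower by edgeR, where 24.3% of all genes tested were. All 31 muscle fiber genes were tested and 0 were called by the quasi-likelihood test of edgeR, against 3 by its likelihood ratio test (2 higher, 1 lower), 2 by DESeq2 (both higher) and 1 by limma-voom (higher), and 10 had an unadjusted p under 0.05 in the quasi-likelihood test. When vehicle replicate 3 was left out, 2 of them were called higher and 11 lower, and without vehicle replicates 1 and 2 none was (0 of 31, and 0 at an unadjusted p under 0.05). With all 6 libraries they had a median log2 fold change of -0.52 and 23 values below 0, where the median over all genes tested was 0.01. Of the 22 endothelial genes, 5 were tested and 1 was called lower by the quasi-likelihood test of edgeR, the fatty acid binding protein gene Fabp4, against 2 by its likelihood ratio test, 1 by DESeq2 and 0 by limma-voom. By the quasi-likelihood test, 5 of 8 tested were called lower without vehicle replicate 3, and 0 of 4 without vehicle replicates 1 and 2, with 1 at an unadjusted p under 0.05. Of the markers of other cell types, 1 of 8 smooth muscle and pericyte genes (Myh11, -1.32) and 4 of 6 fibroblast genes could be tested, and 0 were called by edgeR, DESeq2 or limma-voom, with Myh11 at an unadjusted p under 0.05 in edgeR. Myh11, the smooth muscle myosin gene, was called lower without vehicle replicate 3 (-1.63), and its part in the other differences in that fit was not tested. None of the 4 adipocyte, 5 immune, 5 satellite cell and Schwann cell and 5 erythroid genes had enough counts to test.

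The genes whose levels over the 6 libraries were most like those of the 3 opposite RNAs were named by the highest Pearson's r of log2(CPM + 1) among 1681 genes. For A630019I02Rik they were Spg11 (r = 0.989), 0610039K10Rik (0.985) and Ptp4a3 (0.972). For A930016O22Rik they were Pdzk1 (0.994), Irs1 (0.987), which encodes an insulin receptor substrate, and Gm16596 (0.983). For Gm15816 they were D330050I16Rik (0.986), 4930413G21Rik (0.980) and Ilk (0.974), the integrin-linked kinase gene. These values are the highest of many over 6 libraries, and they describe likeness in these libraries.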

How the data were processed

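TRAP RNA of muscle endothelium was sequenced in 6 libraries, 3 of each treatment, grouped by the sample labels. The authors demultiplexed reads with bcl2fastq (2.17), aligned them by STAR (2.5.3a) on mm10, ran featureCounts from Subread (1.6.0), versions as in the submitters' processing notes, and deposited whole-number counts per gene symbol without normalization. The strand option of featureCounts was not given in the sources used here. A stranded total RNA kit is named in the labels and a ribosome profiling kit in the paper.

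Differential expression was computed from the counts with edgeR (4.0.16) in R (4.3.3), with filterByExpr (1682 genes), TMM, the quasi-likelihood test and Benjamini-Hochberg adjustment over all genes tested, called at an adjusted p below 0.05. The SE is the absolute log2 fold change divided by the square root of F. Pair ratios were log2((opposite RNA + 0.5)/(muscle gene + 0.5)), tested by exact permutation. Exons were taken from GENCODE M21. Of the 24062 symbols, 22758 matched by name and 922 through a RefSeq synonym, and the exons the authors counted on may differ. The tests were checked on simulated data.

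The 9 genes, the lists and the rules were chosen with earlier results of these data known. Named are the 9 genes, genes with exons opposite to them, the 20 most abundant genes, the 3 genes most like each of 3 RNAs, and from each list the genes called and the gene with the most counts. Of the lists chosen, 1 is not reported here. Other list members, Y-linked genes and endothelial markers were named after their values were seen. Alternatives were no filter, 10 counts in every library, RLE, library totals, Rn45s left out, edgeR's likelihood ratio test, DESeq2 (1.42.0), limma-voom (3.58.1), the replicate block, each library left out, and vehicle replicates 1 and 2 left out. The counts over lists and over all pairs without doubted libraries were added after the data were seen.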

Additional observations from a re-analysis of the deposited data

How the results depend on the processing

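The number of the 9 genes called was 1 with all libraries. It was 0 with 10 counts required in every library, with limma-voom and without vehicle replicates 1 and 2, and 1 under the other 7 alternatives that kept all libraries. With 1 library left out it was between 0 and 5, with 5 without vehicle replicate 3 and 0 without vehicle replicate 1 or any E2 library. The adjusted p of Zcrb1 ranged from 3.17e-05 to 0.954 and was 0.0750 with 10 counts required and 0.0869 with limma-voom. Without vehicle replicates 1 and 2, the log2 fold change turned to -0.062 for A630019I02Rik, 0.41 for Cmya5, -1.05 for A930016O22Rik, 0.52 for Ank1, 0.57 for Akap5 and 0.13 for Zcrb1, and the log2 difference of the ratio turned to -0.48 for A630019I02Rik to Cmya5, -0.56 for A930016O22Rik to Ckm, -0.013 for Gm15816 to Ank1 and -0.72 for D830015G02Rik to Myh7. A930016O22Rik, at 0.01 with all libraries, was also below 0 with 10 counts required (-0.0085), RLE (-0.019), library totals (-0.079), Rn45s left out (-0.00081), DESeq2 (-0.019) and without vehicle replicate 1 (-0.31), vehicle replicate 2 (-0.43) or E2 replicate 1 (-0.36), with a range from -0.43 to 1.27 when 1 library was left out. Ckm was above 0 without vehicle replicate 3 (0.074) or E2 replicate 1 (0.025). It ranged from -0.46 to 0.074 when 1 library was left out, and was -0.52 without vehicle replicates 1 and 2. D830015G02Rik was above 0 with limma-voom (0.28), the replicate block (0.21), without vehicle replicate 3 (0.83) and without E2 replicate 2 (0.032). It ranged from -0.74 to 0.83 when 1 library was left out, and was -1.16 without vehicle replicates 1 and 2. The causes were not tested. With 1 library left out, the ratio differences stayed above 0, between 0.71 and 1.98 for A630019I02Rik to Cmya5, 0.05 and 1.17 for A930016O22Rik to Ckm, and 0.91 and 1.93 for Gm15816 to Ank1. With library totals in place of TMM the median of all genes tested was -0.15.

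The replicate numbers shared by the groups did not pair the libraries: the deviations from the group means of same-numbered libraries had an r of -0.13, 0.03 and -0.20. With the replicate block, 7 genes were called higher and 1 lower among all genes, against 42 and 50 without it, and Zcrb1 was the lower gene among the 9 (log2 fold change -2.45, BH-adjusted p = 0.0161, edgeR). As paired differences, the ratios had p = 0.5, 0.75 and 0.25 in an exact sign-flip test of 3 pairs, which cannot go below 0.25. Among all genes tested, 477 were called higher and 526 lower without vehicle replicate 3, and at most 15 and 11 with any other library left out. Of the 9 genes, Ank1, with 10 counts in vehicle replicate 3, is the most limited by low counts.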
